A study of Mus musculus with 12 samples.

Results

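The genes examined were 10 genes of oxidative and metal stress defence, taken by name from the 27179 genes of a whole-kidney RNA sequencing table. They were the transcription factor gene Nfe2l2, its targets Nqo1, Hmox1, Txnrd1, Srxn1, Gclc, Gclm and Gsr, and the metallothionein genes Mt1 and Mt2. The 12 libraries came from mice of 8 to 12 weeks on a mixed strain background, with 3 libraries in each of 4 groups. Wild-type mice and FAN1KO mice (γGT1-Cre;Fan1-/-, in which Cre deletes Fan1 in proximal tubule cells) received saline or cisplatin, a platinum drug that crosslinks DNA and injures the kidney tubule. Cisplatin was injected into the peritoneum at 2 mg/kg once a week, for 5 weeks. The question was how these defence genes differed between genotypes and treatments in kidneys exposed to low repeated doses. RNA came from whole kidney, so fewer cells of a type and less RNA per cell cannot be told apart, and cells outside the proximal tubule kept Fan1. Where nothing else is stated, values are TPM, a transcript abundance scaled by gene length, and each library's values sum to 1000000.

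NRF2, the protein of Nfe2l2, is held low by KEAP1, which marks it for breakdown. Electrophiles and oxidants modify KEAP1, and NRF2 then enters the nucleus, pairs with a small MAF protein and binds antioxidant response elements (AREs) in front of genes for quinone reduction, thioredoxin and glutathione renewal and NADPH supply. Metallothioneins are small cysteine-rich proteins that bind zinc, copper and other metals. The zinc sensor MTF1 drives their genes through metal response elements (MREs), and glucocorticoids and NRF2 can also act on them.

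Promoter windows of 300 bases (250 before and 50 after a start site, RefSeq, GRCm38.p6) were held for 7 of the 10 genes, in 9 windows. The ARE words TGACNNNGC and TGAGNNNGC and the MRE words TGCACNC and TGCGCNC were searched on both strands. Of 32851 mouse promoters, 27.8% held an ARE word and 25.7% an MRE word, so a match alone is common, and none is evidence of binding. Srxn1 held 3 ARE words, where the 99th percentile of promoters was 2, and Mt2 held 4 MRE words, where it was 3. Mt1 and Gclm held 3 MRE words each, of which 1 in Mt1 lay before the window's start site. The RefSeq record of Mt1 starts 206 bp before that site, so the Mt1 bases printed below lie inside the annotated gene. Nfe2l2, Gclm and Mt2 held 1 ARE word each, and so did 1 of the 3 Txnrd1 windows. No word was found in the Nqo1 window, which says only that these letters were not in it. The words of Srxn1 and Mt2 are shown because these genes had the most of the 7 searched, and that of Mt1 because Mt1 lies 5316 bp beyond Mt2 on the same strand. Capitals mark the ARE words before the start site in Srxn1 (chr2:152105274-152105523, plus strand; its MRE word is left in lower case), an MRE word in 30 bases before the window's start site of Mt1 (chr8:94179059-94179088, plus strand) and both kinds of word in Mt2 (chr8:94172368-94172617, plus strand), all 5′ to 3′.
Srxn1: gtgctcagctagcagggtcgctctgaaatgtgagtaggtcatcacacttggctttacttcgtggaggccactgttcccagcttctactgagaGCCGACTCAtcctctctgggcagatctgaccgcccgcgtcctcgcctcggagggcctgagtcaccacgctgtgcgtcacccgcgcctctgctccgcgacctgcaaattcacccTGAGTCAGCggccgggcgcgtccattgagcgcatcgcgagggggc
Mt1: cccgctgTGCACACtggcgctccagggagc
Mt2: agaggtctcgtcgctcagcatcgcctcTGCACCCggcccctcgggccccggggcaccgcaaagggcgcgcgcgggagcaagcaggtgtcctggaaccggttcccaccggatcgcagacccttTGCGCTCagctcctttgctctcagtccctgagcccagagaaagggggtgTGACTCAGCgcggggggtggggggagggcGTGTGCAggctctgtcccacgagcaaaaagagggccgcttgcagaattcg

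Sequencing depth was even enough to measure every member well. Whole reads, recovered from the steps they leave in the TPM, numbered 37201916 to 82947187 per library, and the member with the fewest reads in any library was Hmox1, with 788. Fan1 itself was low, at 1.98 to 3.80 TPM in the wild-type and 1.17 to 3.51 TPM in the FAN1KO libraries. These ranges overlapped, so Fan1 RNA of whole kidney did not check the genotype labels. Y-linked genes were expressed in 1 library of each group (FAN1KO cisplatin 3, wild-type cisplatin 1, wild-type saline 3 and FAN1KO saline 1). In each group that library had the most genes more than 2-fold below both others, 247 to 1164 of them against 20 to 53 in the other 8. For Nfe2l2, Srxn1, Mt1 and Mt2 it was the lowest library in 4 of 4 groups, so it widened the spread of these genes, and sex and other differences of those libraries cannot be told apart.

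A different library stood apart for the NRF2 targets. Wild-type cisplatin replicate 2 was the highest of all 12 libraries for Hmox1, Txnrd1, Gclc, Gclm and Gsr. In it 4 members (Hmox1, Txnrd1, Srxn1 and Gclc) were more than 2-fold above both other libraries of the group, as were 99 of 14972 genes, or 0.661%. Hmox1 ranked 1 of those 14972 genes by this difference. Only 1 other library held a member that far above both others of its group, FAN1KO saline 1, with Hmox1. Results that rest on wild-type cisplatin 2 are therefore given with and without it.

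**Figure D1:**
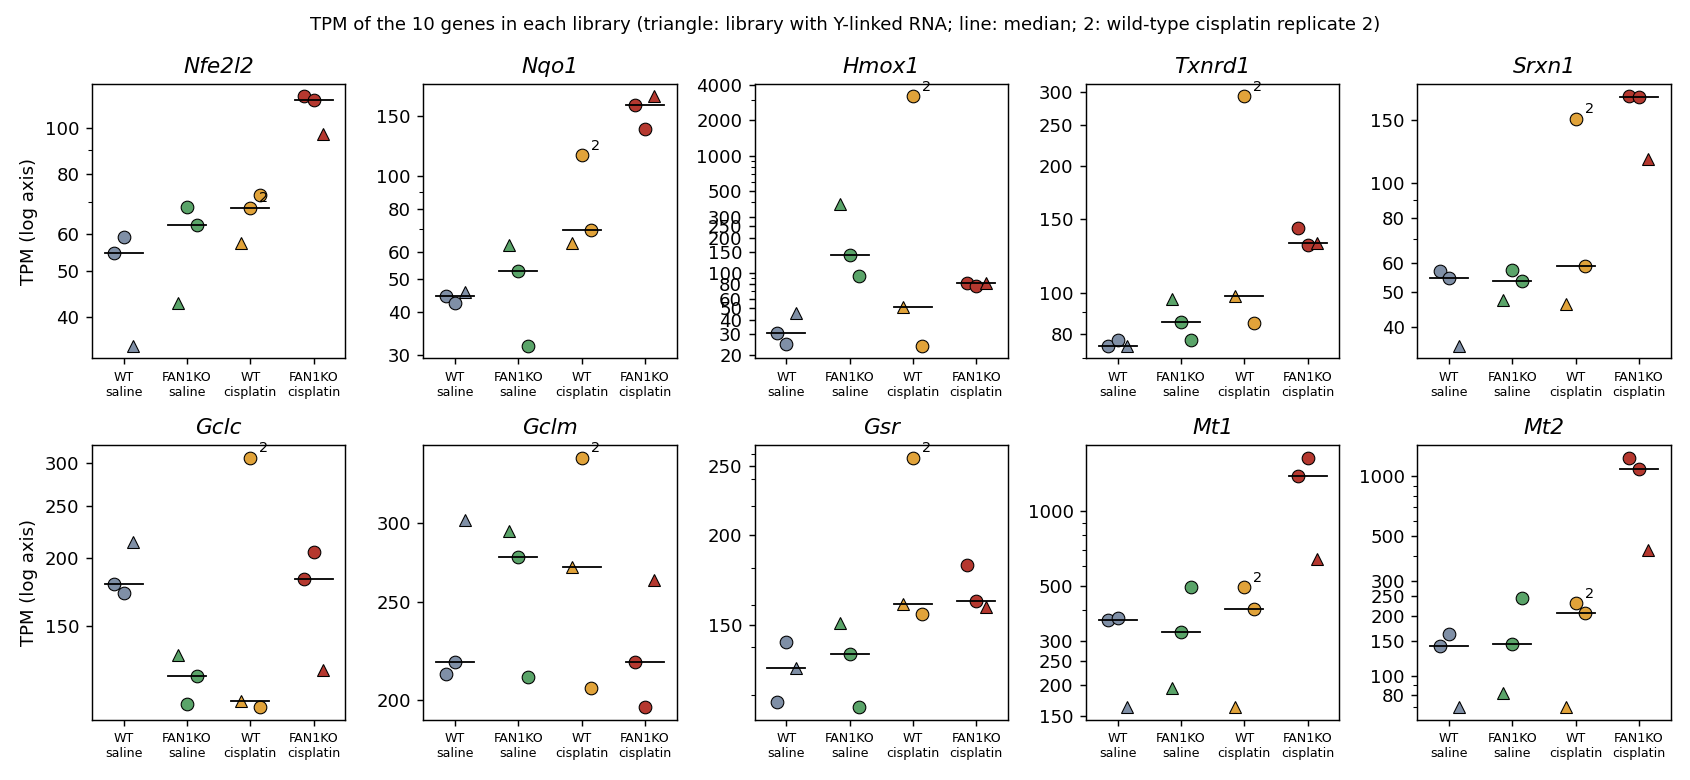
TPM of the 10 genes (log axis, 1 panel per gene) in the 4 groups, with 1 point per library and a line at the group median; triangles are the libraries with Y-linked RNA, and 2 marks wild-type cisplatin replicate 2. The FAN1KO cisplatin points of Nfe2l2, Nqo1, Mt1 and Mt2 lie above all others, while wild-type cisplatin replicate 2 tops Hmox1, Txnrd1, Gclc, Gclm and Gsr.

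In wild-type saline kidneys the order of median TPM, which allows comparison between genes, was Mt1 (365), Gclm (218), Gclc (179), Mt2 (141), Gsr (131), Txnrd1 (75.0), Nfe2l2 (54.6), Srxn1 (54.4), Nqo1 (44.5) and Hmox1 (30.9). Neighbours in this order overlapped over the 3 libraries, except Gclc with Mt2, Gsr with Txnrd1 and Txnrd1 with Nfe2l2. In FAN1KO cisplatin kidneys Mt1 (median 1391) and Mt2 (1094) led, followed by Gclm (218), Gclc (183), Srxn1 (174), Gsr (162), Nqo1 (161), Txnrd1 (131), Nfe2l2 (115) and Hmox1 (81.5). Metallothionein transcripts thus stood above the glutathione genes in every FAN1KO cisplatin library.

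Under cisplatin, FAN1KO kidneys had more Nfe2l2, Nqo1, Mt1 and Mt2 transcript than wild-type kidneys, by 0.73, 0.95, 1.83 and 2.48 on the log2(TPM + 1) scale. These 4 of 10 members rose at an adjusted p under 0.05 (limma over all genes) and none fell. Among all 14972 genes tested 19.6% were called higher and 4.37% lower, and 35.7% were higher without overlap of 3 against 3 libraries, as the same 4 members were. The 4 of 10 without overlap are near that last share, so that count is no result about the members. The median log2 fold change was 0.43 over the members and 0.24 over all genes, and relative to that latter shift the rises were 0.48 for Nfe2l2, 0.71 for Nqo1, 1.59 for Mt1 and 2.23 for Mt2. With each library scaled by its median ratio to the others, 3 members were called, where 8.68% of all genes were higher and 7.71% lower. Without wild-type cisplatin 2, 5 members were called higher (Nqo1, Txnrd1, Srxn1, Mt1 and Mt2), where 15.9% of all genes were. Leaving out any 1 of the 6 cisplatin libraries changed at least 1 of these calls: the adjusted p (limma) then ran from 0.0403 to 0.117 for Nfe2l2, 0.00993 to 0.0866 for Nqo1, 0.0187 to 0.113 for Mt1 and 0.00861 to 0.0637 for Mt2. All 4 calls were lost without FAN1KO cisplatin 1, and all but Mt2 without wild-type cisplatin 1. The exact permutation test of 3 against 3 cannot go below p = 0.1, which it gave for each of the 4 members.

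Within FAN1KO kidneys, cisplatin raised 5 members over saline: Nfe2l2, Nqo1, Srxn1, Mt1 and Mt2, where 34.9% of all genes were called higher and 4.9% lower. The groups did not overlap for these 5 or for Txnrd1 and Gsr, 7 members in all, against 47.4% of all genes, and Hmox1 was lower without overlap, against 7.43%. The members' median was 0.78 and that of all genes 0.37. The same 5 members were called under median-ratio scaling, where 14.4% of all genes were higher, and Txnrd1 joined them (0.64, adjusted p = 0.00202, limma) without wild-type cisplatin 2, which changes only the shared estimate of the spread here. Both comparisons share the FAN1KO cisplatin libraries, so their values are set side by side and not counted as separate evidence.

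The other comparisons gave no call among the members. Under saline, 0 of 10 differed between genotypes by limma and 0 had an unadjusted p under 0.05, with 0.768% of all genes called, and voom on recovered reads also called 0. Groups did not overlap for Hmox1 and Txnrd1, which were higher in FAN1KO kidneys (as 4.62% of genes were), or for Gclc, which was lower (as 7.83% were). In wild-type kidneys cisplatin gave 0 calls by limma and by voom, 3 members with an unadjusted p under 0.05 (Nqo1, Txnrd1 and Gsr) and 0.0601% of all genes called. Those 3 were also higher without overlap, against 5.2% of all genes. For the genotype by cisplatin interaction, the test of whether cisplatin's effect differed between genotypes, 0 members were called by limma or voom, 3 had an unadjusted p under 0.05 (Nqo1, Mt1 and Mt2), and 6.24% of all genes were called.

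**Figure D2:**
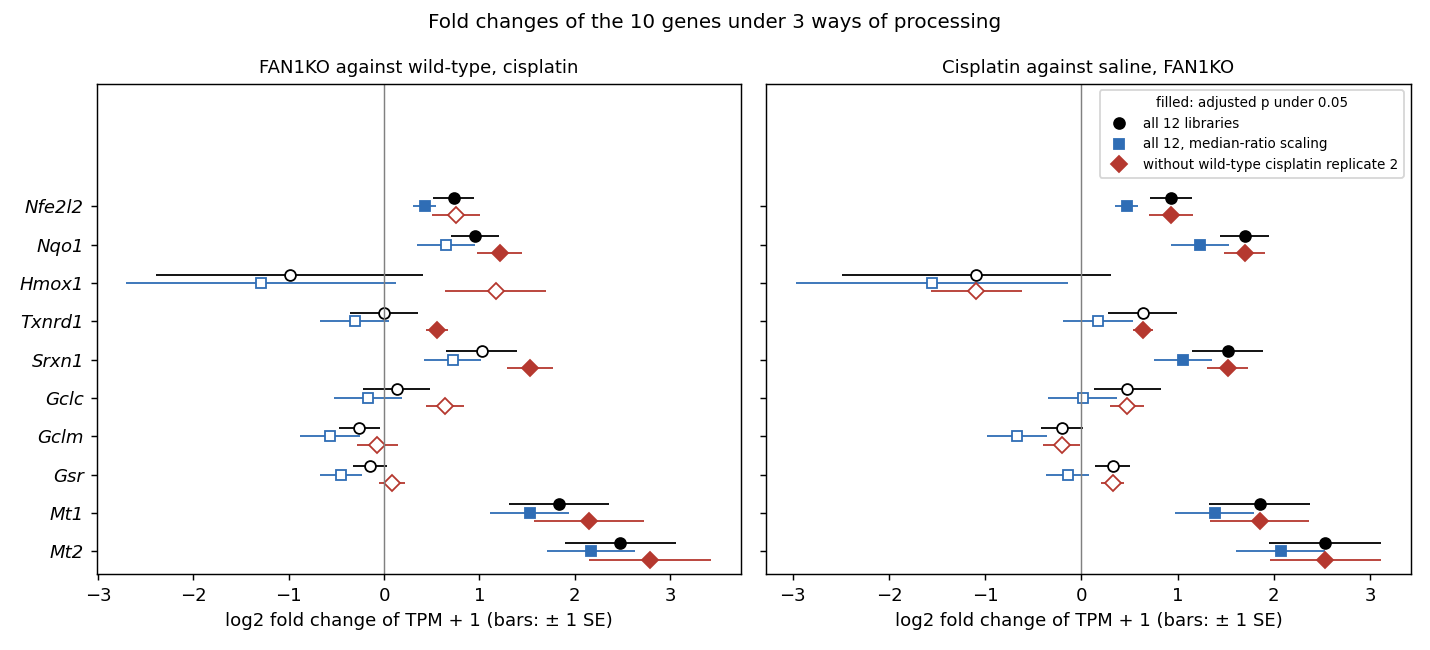
log2 fold change of TPM + 1 with bars of ± 1 SE for the 10 genes in 2 comparisons, from all 12 libraries, after median-ratio scaling, and without wild-type cisplatin replicate 2; filled symbols have an adjusted p under 0.05. Mt2 and Mt1 lie farthest right in both panels, and leaving out that library moves Hmox1 from -0.99 to 1.17 and Txnrd1 from -0.00 to 0.55 in the left panel.

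Nfe2l2 (Gene 18024, chr2:75675513-75704663) encodes NRF2. Its levels were 54.6, 58.9 and 34.8 TPM in wild-type saline, 42.9, 68.4 and 62.5 in FAN1KO saline, 57.4, 68.0 and 72.3 in wild-type cisplatin and 117, 115 and 97.3 in FAN1KO cisplatin kidneys. Each FAN1KO cisplatin library was above each of the 9 others. The log2 fold change was 0.73 (SE 0.21, adjusted p = 0.0340, limma) against wild-type cisplatin and 0.93 (adjusted p = 0.00722, limma) against FAN1KO saline. The first rise had an adjusted p of 0.0368 under median-ratio scaling and 0.0612 without wild-type cisplatin 2. RNA of Nfe2l2 is not a measure of NRF2 activity, which is set mainly by protein stability.

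Nqo1 (Gene 18104, chr8:107388225-107403205) encodes a quinone reductase and is a standard readout of NRF2. Its levels were 44.5, 42.4 and 45.9 TPM in wild-type saline, 62.6, 52.9 and 31.9 in FAN1KO saline, 63.8, 115 and 69.6 in wild-type cisplatin and 161, 137 and 171 in FAN1KO cisplatin kidneys. All 3 wild-type cisplatin libraries lay above all 3 wild-type saline libraries, by 0.84 on the log2 scale (SE 0.25, unadjusted p 0.00749, adjusted p = 1.00, limma), and below all FAN1KO cisplatin libraries. FAN1KO exceeded wild-type under cisplatin by 0.95 (SE 0.25, adjusted p = 0.0229), and by 1.21 without wild-type cisplatin 2 (adjusted p = 0.00993, limma). Median-ratio scaling left 0.65 (adjusted p = 0.171, limma), which was not called. In FAN1KO kidneys the rise over saline was 1.70 (adjusted p = 0.000877, limma) and was called under both.

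Hmox1 (Gene 15368, chr8:75093618-75100593) encodes heme oxygenase-1, which breaks down heme and also answers to BACH1 and other signals. Its levels were 30.9, 25.0 and 45.3 TPM in wild-type saline, 386, 141 and 93.5 in FAN1KO saline, 51.5, 3214 and 23.9 in wild-type cisplatin and 82.3, 77.3 and 81.5 in FAN1KO cisplatin kidneys. A single wild-type cisplatin library held 85.2 times the mean of the other 2 of its group, on 111787 reads, so depth is not the limit of that value. FAN1KO cisplatin libraries were the least variable group, within 1.07-fold of each other. Under cisplatin the difference between genotypes was -0.99 (SE 1.40, 95% interval -4.08 to 2.10) with all libraries and 1.17 (adjusted p = 0.138, limma) without that library. Under saline all 3 FAN1KO libraries were above all 3 wild-type libraries, by 2.36 (SE 1.40, adjusted p = 0.788, limma), and the mean ratio was 6.13. That ratio rested on FAN1KO saline 1, and without it was 3.48 (mean 117 TPM), with a difference of 1.78 (adjusted p = 0.864, limma).

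Txnrd1 (Gene 50493, chr10:82833951-82897724) encodes the cytosolic thioredoxin reductase. Its span overlaps Eid3 and Gm38560, and reads could be shared with them. Its levels were 74.9, 77.1 and 75.0 TPM in wild-type saline, 96.7, 85.1 and 77.5 in FAN1KO saline, 98.2, 293 and 84.8 in wild-type cisplatin and 143, 129.9 and 131 in FAN1KO cisplatin kidneys. Apart from wild-type cisplatin 2, each FAN1KO cisplatin library was above each of the other 8. The genotype difference under cisplatin was -0.00 (95% interval -0.79 to 0.78) with all libraries and 0.55 (SE 0.12, adjusted p = 0.0131, limma) without wild-type cisplatin 2.

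Srxn1 (Gene 76650, chr2:152105524-152111376) encodes sulfiredoxin, which restores overoxidised peroxiredoxins, and its promoter held the most ARE words among the 7 members searched (printed above). Its levels were 57.1, 54.4 and 35.3 TPM in wild-type saline, 47.3, 57.3 and 53.5 in FAN1KO saline, 46.1, 151 and 58.9 in wild-type cisplatin and 174, 174 and 117 in FAN1KO cisplatin kidneys. Apart from wild-type cisplatin 2, every library outside FAN1KO cisplatin was at 58.9 TPM or below. The genotype difference under cisplatin was 1.03 (SE 0.37, adjusted p = 0.0680, limma), and 1.53 (SE 0.24, adjusted p = 0.00459, limma) without that library. Cisplatin raised Srxn1 in FAN1KO kidneys by 1.52 (adjusted p = 0.00927, limma). The interaction was 0.89 (adjusted p = 0.319, limma) with all libraries and 1.40 (adjusted p = 0.0479) without wild-type cisplatin 2, when Srxn1 and Gclc were the 2 members called.

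The 3 glutathione genes gave no call in any of the comparisons with all libraries. Gclc (Gene 14629, chr9:77754535-77794489) and Gclm (Gene 14630, chr3:122245487-122267215) encode the catalytic and modifier subunits of the enzyme that limits glutathione synthesis, and Gsr (Gene 14782, chr8:33653238-33698162) encodes glutathione reductase. Gclm and Gsr each overlap predicted genes, with which reads could be shared.

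Gclc TPM was 179, 172 and 214 in wild-type saline, 132, 107 and 121 in FAN1KO saline, 109, 307 and 106 in wild-type cisplatin and 183, 206 and 124 in FAN1KO cisplatin kidneys. All 3 wild-type saline libraries were above all 3 FAN1KO saline libraries (difference of FAN1KO from wild-type -0.64, adjusted p = 0.735, limma). Without wild-type cisplatin 2, the remaining wild-type cisplatin libraries were the lowest of the table but for 1 FAN1KO saline library, and the interaction was 1.28 (adjusted p = 0.0380, limma), where 2.97% of all genes were called higher.

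Gclm TPM was 212, 218 and 302 in wild-type saline, 294, 278 and 211 in FAN1KO saline, 271, 348 and 206 in wild-type cisplatin and 218, 197 and 263 in FAN1KO cisplatin kidneys. The 4 groups overlapped in every pairing, and the genotype difference under cisplatin was -0.26 (95% interval -0.74 to 0.22). Gsr TPM was 117, 142 and 131 in wild-type saline, 151, 137 and 115 in FAN1KO saline, 161, 257 and 155 in wild-type cisplatin and 182, 162 and 159 in FAN1KO cisplatin kidneys. Cisplatin libraries were above saline libraries within both genotypes, by 0.51 in wild-type and 0.32 in FAN1KO kidneys, and neither difference was called (adjusted p = 1.00 and 0.177, limma). Between genotypes under cisplatin, Gsr differed by -0.15 (95% interval -0.55 to 0.25).

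**Figure D3:**
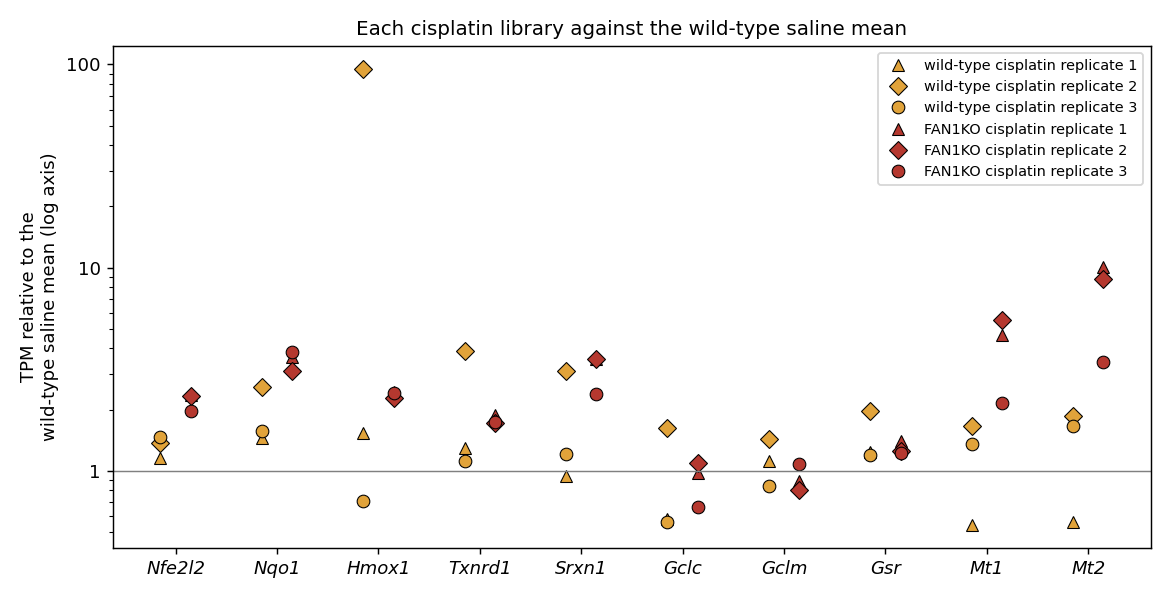
TPM of each of the 6 cisplatin libraries divided by the wild-type saline mean (log axis; line at 1) for the 10 genes; colours give the genotype and symbols the replicate. Wild-type replicate 2 (yellow diamond) reaches 95.3 for Hmox1 and 3.88 for Txnrd1, while the FAN1KO libraries lead for Nfe2l2, Nqo1, Mt1 and Mt2.

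The NRF2 targets in wild-type cisplatin 2 did not move by one factor. Over the mean of the other 2 libraries of its group the ratio was 85.2 for Hmox1, 3.21 for Txnrd1, 2.88 for Srxn1, 2.86 for Gclc, 1.74 for Mt1, 1.72 for Nqo1, 1.67 for Mt2, 1.63 for Gsr, 1.46 for Gclm and 1.05 for Nfe2l2. FAN1KO cisplatin kidneys had another order over the same 2 libraries, led by Mt2 (6.69), Mt1 (4.33), Srxn1 (2.95) and Nqo1 (2.34), with 2.13 for Hmox1, 1.69 for Nfe2l2, 1.59 for Gclc, 1.47 for Txnrd1, 1.06 for Gsr and 0.948 for Gclm. Of these 2 libraries, wild-type cisplatin 1 held Y-linked RNA and was the lowest of its group for Nfe2l2, Srxn1, Mt1 and Mt2. It had 162 TPM of Mt1 against 405 in replicate 3, and 69.5 TPM of Mt2 against 206. Its low values raise the ratios of these genes in both orders. Among 26 other NRF2 targets tested, 2 were more than 2-fold above both others in wild-type cisplatin 2. They were Cbr3, a carbonyl reductase gene (2.41, 53.7 and 10.0 TPM in the 3 wild-type cisplatin libraries), and Pgd (87.3, 210.1 and 98.6). Marker sums of that library were the highest of its group for fibroblasts (264 against 69.8 and 155 TPM), endothelium (163 against 38.3 and 97.7), podocytes (151 against 55.2 and 113), macrophages (974 against 280 and 803), neutrophils (5.57 against 1.47 and 3.56) and the injured tubule (234 against 118 and 221). Its proximal tubule sum was the lowest (5810 against 9745 and 6805), and the sums of the remaining cell marker lists, erythroid included (4631 against 2318 and 6571), lay between those of the other 2. Their part in the values was not tested.

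Mt1 (Gene 17748, chr8:94178883-94180327) and Mt2 (Gene 17750, chr8:94172618-94173567) encode the 2 metallothioneins that most tissues make, and showed the largest rises among the members in both comparisons that use the FAN1KO cisplatin libraries. Their sequences are alike, and reads could have been split between them. Mt1 levels were 365, 370.4 and 163 TPM in wild-type saline, 193, 326 and 495 in FAN1KO saline, 162, 494 and 405 in wild-type cisplatin and 1391, 1649.5 and 645 in FAN1KO cisplatin kidneys. Mt2 levels were 141, 163 and 69.4 TPM in wild-type saline, 82.2, 144 and 247 in FAN1KO saline, 69.5, 231 and 206 in wild-type cisplatin and 1244, 1094 and 427 in FAN1KO cisplatin kidneys. Every FAN1KO cisplatin library was above all 9 others for both genes, and within each group the library with Y-linked RNA was the lowest.

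Against wild-type cisplatin, Mt1 rose by 1.83 (SE 0.53, adjusted p = 0.0308, limma) and Mt2 by 2.48 (SE 0.58, adjusted p = 0.0135). Against FAN1KO saline, Mt1 rose by 1.85 (adjusted p = 0.0184, limma) and Mt2 by 2.54 (adjusted p = 0.00699). All 4 calls held under median-ratio scaling and without wild-type cisplatin 2. In FAN1KO kidneys the Mt1 rise over saline was not called without FAN1KO saline 1 (adjusted p = 0.0737, limma), FAN1KO cisplatin 1 (0.0704) or FAN1KO cisplatin 2 (0.0705). In wild-type kidneys cisplatin moved Mt1 by 0.19 (95% interval -0.98 to 1.35) and Mt2 by 0.35 (95% interval -0.93 to 1.63). The interaction was 1.67 for Mt1 (adjusted p = 0.195, limma) and 2.18 for Mt2 (adjusted p = 0.130). With a Y-linked covariate the SE fell to 0.22 and 0.26 and both passed (adjusted p = 0.00100 and 0.000680, limma), as did Nfe2l2 (adjusted p = 0.0319), 3 members where 27.3% of all genes were called higher. The 3 of 10 are near that share, so the count is no result about the members. In the 8 libraries without Y-linked RNA, 2 a group, the same 3 members were called (adjusted p = 0.0161 for Mt1, 0.0116 for Mt2 and 0.0335 for Nfe2l2, limma), where 13.4% of all genes were.

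Mt2 was higher relative to Mt1 in each FAN1KO cisplatin library than in any other. The ratio of Mt2 to Mt1 levels was 0.385 to 0.509 in the 9 libraries outside the FAN1KO cisplatin group and 0.663 to 0.894 inside it. Its mean was 0.740 ± 0.133 (SD, n = 3) in FAN1KO cisplatin, 0.468 ± 0.0399 in wild-type cisplatin, 0.456 ± 0.0375 in FAN1KO saline and 0.417 ± 0.0281 in wild-type saline kidneys. The two-sided exact permutation p was 0.1 for FAN1KO against wild-type under cisplatin and for cisplatin against saline in FAN1KO, the smallest that 3 against 3 can give, and 0.3 and 0.2 for the comparisons under saline and in wild-type kidneys. A ratio within a library does not depend on scaling between libraries.

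**Figure D4:**
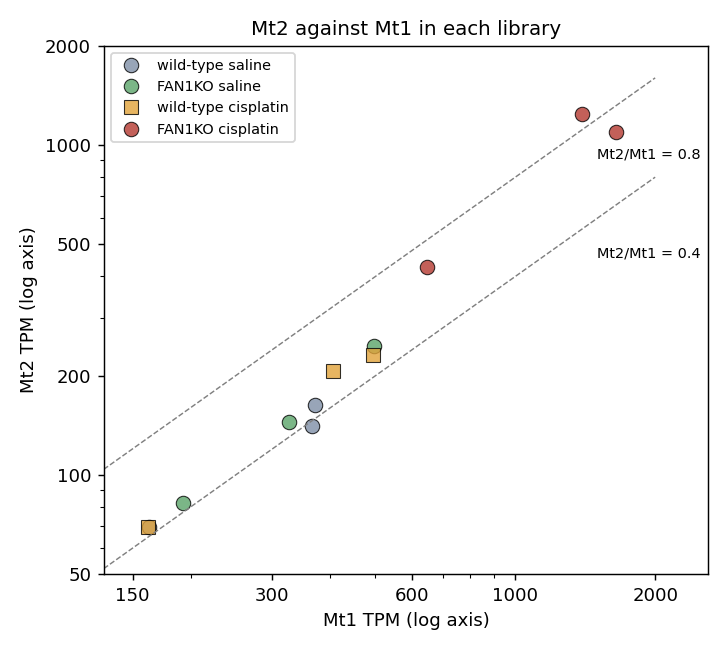
Mt2 TPM against Mt1 TPM (both log axes), 1 point per library, coloured by group (wild-type cisplatin as squares), with dashed lines where the ratio of Mt2 to Mt1 is 0.4 and 0.8. At the lower left, 1 wild-type saline point lies under 1 wild-type cisplatin point. The 9 libraries outside FAN1KO cisplatin follow the lower line from 69.4 to 247 TPM of Mt2, and the 3 FAN1KO cisplatin libraries lie at 427 to 1244 TPM, closer to the upper line.

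Other genes of the pathway were read as 4 lists, whose members are not independent of earlier results of these data. Of 13 NRF2 regulators, 1 rose and 0 fell under cisplatin in FAN1KO relative to wild-type kidneys (limma), which is 7.69% against 19.6% of all genes called higher, with a median of 0.12 against 0.24 over all genes. It was Maff, a small MAF partner of NRF2, at 3.40, 9.11 and 7.98 TPM in wild-type and 36.2, 25.5 and 26.5 TPM in FAN1KO cisplatin kidneys (log2 fold change 2.03, SE 0.31, adjusted p = 0.00189). In FAN1KO kidneys cisplatin raised Maff (3.13) and, named after their values were seen, Mafk (0.74) and Keap1 (0.42), 23.1% of the list against 34.9% of all genes. There the list's median was 0.28 against 0.37. Under median-ratio scaling 1 regulator rose, where 14.4% of all genes did, and 1 fell. The share of all genes that fell is not given, so that fall is no result about the list.

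Of 29 other NRF2 targets 26 were tested, and 5 rose and 0 fell under cisplatin in FAN1KO relative to wild-type kidneys, with a median of 0.38. The 5 are 19.2% of those tested, near the 19.6% of all genes called higher, so the count is no result about the list. Akr1b8, an aldo-keto reductase gene, was at 4.15, 8.58 and 7.23 TPM in wild-type and 76.5, 54.0 and 45.7 TPM in FAN1KO cisplatin kidneys (2.98, SE 0.29, adjusted p = 0.000262, limma). The others were Abcc2, an efflux pump gene (0.85), and 3 genes of the pentose phosphate route to NADPH, G6pdx (0.84), Pgd (0.86) and Taldo1 (0.45), of which Pgd and Taldo1 fell outside the naming rule and were named after their values were seen. Abcc2 was also higher in FAN1KO kidneys under saline (0.92, adjusted p = 0.105, limma), with an interaction of -0.06. Cisplatin moved it by 0.28 in FAN1KO kidneys (adjusted p = 0.310, limma). Its call under cisplatin was lost under median-ratio scaling (adjusted p = 0.0684, limma), where its saline difference was called (adjusted p = 0.0398). Cisplatin against saline in FAN1KO kidneys gave 10 rises and 0 falls, 38.5% against 34.9% of all genes, with Akr1b8 (3.62), Ephx1, an epoxide hydrolase gene (3.56), and Cbr3 (3.44) at the top, and Ephx1 and Cbr3 were likewise named after their values were seen. Median-ratio scaling left 2 rises and 1 fall between genotypes under cisplatin, where 8.68% of all genes were called higher and 7.71% lower. Within FAN1KO it left 5 rises and 2 falls, where 14.4% of all genes were called higher. The share called lower is not given, so the 2 falls are no result about the list.

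Of 17 antioxidant enzymes outside the NRF2 lists, 0 rose and 4 fell under cisplatin in FAN1KO relative to wild-type kidneys (limma), with a median of -0.17. With the Y-linked covariate 1 rose and 5 fell, as in the 8 libraries without Y-linked RNA. The shares of all genes under these settings are not given. In FAN1KO kidneys cisplatin against saline gave 4 falls (23.5% against 4.9% of all genes) and 1 rise (5.88% against 34.9%). The rise was Txnrd3, a thioredoxin reductase gene named after its value was seen (0.78, adjusted p = 0.00345, limma). Catalase (Cat) was at 617, 585 and 559 TPM in wild-type and 273, 305 and 366 TPM in FAN1KO cisplatin kidneys, and fell by 0.91 on the log2 scale (SE 0.12, adjusted p = 0.000977, limma). The methionine sulfoxide reductase gene Msra fell by 0.71, the mitochondrial superoxide dismutase gene Sod2 by 0.66 and, named after its value was seen, the mitochondrial peroxiredoxin gene Prdx3 by 0.53. These 4 are 23.5% of the list against 4.37% of all genes called lower, and under median-ratio scaling 6 of 17 fell, where 7.71% of all genes did. Of 14 zinc and copper handling genes 11 were tested, 1 of which rose (9.09% against 19.6% of all genes), Slc39a10, a zinc importer gene (0.49, adjusted p = 0.0493, limma), a call lost under median-ratio scaling (adjusted p = 0.602) and without wild-type cisplatin 2 (adjusted p = 0.144). Mt4 was at 0 TPM in all 12 libraries.

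**Figure D5:**
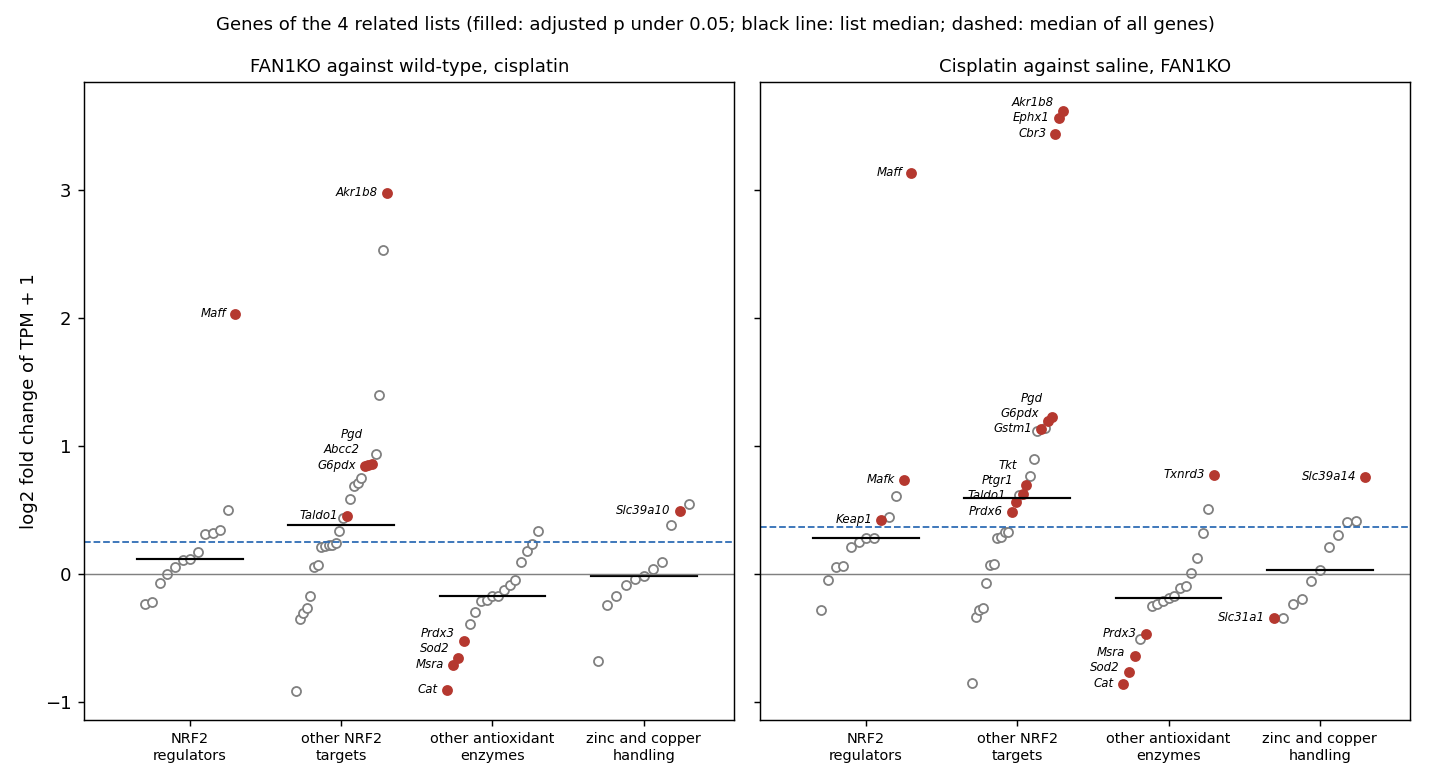
log2 fold change of TPM + 1 of each tested gene of 4 lists, ordered within a list, in 2 comparisons; filled points have an adjusted p under 0.05 and a name, black lines are list medians and dashed lines the median of all genes, 0.24 on the left and 0.37 on the right. Maff and Akr1b8 stand at 2.03 and 2.98 on the left, where the 4 called antioxidant enzymes lie below 0.

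By the root mean square difference of centred log2(TPM + 1) over 12 libraries, among 12289 genes, the patterns most like Nqo1 were those of Ltbp2 (0.28), Nek6 (0.28) and Pgd (0.29). For Mt1 they were Emp2 (0.25), Cyp2s1 (0.26) and Mfge8 (0.26). Mt2 was 23rd in nearness to Mt1, at 0.34, and Mt1 was 4th in nearness to Mt2. Ltbp2 was near the floor, with group means of 0.106 to 1.87 TPM.

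Some cell markers moved with the same groups, and are read against 19.6% of all genes called higher and 4.37% lower. Under cisplatin, in FAN1KO relative to wild-type kidneys, 6 of 6 injured tubule markers rose (summed level 1081 to 1574 TPM against 118 to 234), 5 of 9 proximal tubule markers fell (2739 to 5299 TPM against 5810 to 9745), and for red blood cells 4 of 4 tested fell (6.56 to 73.3 TPM against 2318 to 6571). Called shares were near or below the background for macrophages, with 1 of 8 higher (12.5%, summed level 746 to 1620 TPM against 280 to 974), and for lymphocytes and collecting duct, with 1 of 5 each (20%). Of 2 distal convoluted tubule markers 1 fell, and none was called among the neutrophil, fibroblast, endothelium, podocyte and thick ascending limb markers. These calls depended on the setting. Of 5 endothelium markers 0 had a fold change above 0 (median -0.97). All 5 were called lower with the Y-linked covariate and in the 8 libraries without Y-linked RNA. Macrophage markers called higher numbered 5 of 8 with the covariate and 3 of 8 in those libraries. The shares of all genes for this comparison under these settings are not given, so these counts are no result about the cell types. The kidney markers of proximal tubule and thick ascending limb were expressed in every library. The part of these shifts in the values of the 10 genes was not tested.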

How the data were processed

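RNA of 12 whole mouse kidneys was sequenced, 3 libraries in each of 4 groups taken with their replicate numbers from the labels, which give no litter or culture, so that p-values measure the spread between these samples. The authors deposited 1 table of TPM for 27179 NCBI Gene numbers. The submitters' processing notes name mm10 and limma, and the aligner, counter and annotation are not given in the sources used here, so how reads shared by similar or overlapping genes were assigned is unknown. All columns of values were used. Names, coordinates and promoters came from RefSeq tables of GRCm38.p6, which named 25275 of the identifiers and not the other 1904. The 10 genes and all lists, markers included, were chosen with earlier results of these data known.

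The filter on low values kept the 14972 genes that reached 1 TPM in 3 or more of the 12 libraries. limma 3.58.1 (R 4.3.3) fitted 4 group means to log2(TPM + 1) of all 12 libraries, with a mean-variance trend and Benjamini-Hochberg adjustment over all genes tested, at a threshold of 0.05; fold changes on this scale understate those of low genes. Single values were compared by two-sided exact permutation tests. Named genes were the 10 members, up to 3 called rises and 3 called falls without overlap per related list in FAN1KO against wild-type under cisplatin, the 3 genes nearest in pattern to Nqo1 and to Mt1 with an SD of at least 0.2, and Fan1.

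Whole reads were recovered from the steps of the deposited TPM. All 22557 genes above 0 came out whole in every library within 0.02 reads, against 0 of 500 genes moved at random. Those 500 were drawn from genes above 0 in all 12 libraries, so they do not check the recovery of genes at 0 in some libraries. For scale, 1 read in a gene of 1 kilobase was worth 0.0200 to 0.0479 TPM. The reads gave depths and 1 alternative. Alternatives were a pseudocount of 0.1, no filter, only the 6 libraries of a comparison, median-ratio scaling, a Y-linked covariate, no trend, an adjusted p of 0.1, the replicate number as a block and each library left out; 2 more, voom on recovered reads and only the 8 libraries without Y-linked RNA, were chosen after seeing the data. On simulated libraries of the comparison between genotypes under cisplatin, with 2-fold changes, 186 of 197 changed genes were recovered among 14558, and 17 unchanged genes were called. The simulation gave every gene the same low spread, with no outlying library and no general shift. The real libraries differed from it in these points, so its counts do not give the power or the rate of false calls here. Python 3.11.15, numpy 2.4.6, pandas 2.3.3, scipy 1.17.1 and matplotlib 3.10.9 were also used.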

Additional observations from a re-analysis of the deposited data

Results flagged for a closer look

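Of the genes named from the related lists, 6 had a response to cisplatin that differed between genotypes by limma's interaction test. Among all genes 6.24% were called in either direction. Over the whole lists 7.69% of NRF2 regulators, 7.69% of other NRF2 targets and 9.09% of zinc and copper genes were called higher. Of the other antioxidant enzymes 11.8% were called lower. The share of all genes called in 1 direction is not given, so these list shares have no like share beside them. All but Slc39a14 had been named for their genotype difference under cisplatin, which is part of this interaction. The 6 calls are therefore not separate evidence. Among NRF2 regulators and targets, the response was larger in FAN1KO than in wild-type kidneys by 2.00 for Maff (SE 0.43, adjusted p = 0.0284), 2.96 for Akr1b8 (SE 0.42, adjusted p = 0.00697) and 0.98 for G6pdx (SE 0.20, adjusted p = 0.0245), on the log2 scale. All 3 remained called after median-ratio scaling, without wild-type cisplatin 2 and by voom.

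For 2 antioxidant enzymes the response was lower in FAN1KO kidneys, by -1.04 for Cat (SE 0.17, adjusted p = 0.0124, limma) and -0.70 for Sod2 (SE 0.12, adjusted p = 0.0155). Sod2 had an adjusted p of 0.0502 (limma) after median-ratio scaling.

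For the zinc importer gene Slc39a14, named after its values were seen, the interaction was 0.80 (SE 0.19, adjusted p = 0.0358, limma). Its levels were 17.4, 15.9 and 16.3 TPM in wild-type saline, 11.0, 10.4 and 8.05 in FAN1KO saline, 14.3, 16.5 and 17.1 in wild-type cisplatin and 16.4, 18.9 and 16.0 in FAN1KO cisplatin kidneys. Under saline all 3 FAN1KO libraries were lower than all 3 wild-type libraries, by -0.71 (adjusted p = 0.0412, limma), and under cisplatin the genotypes overlapped. The saline difference was not called after median-ratio scaling (adjusted p = 0.163, limma) or without wild-type cisplatin 2 (adjusted p = 0.0708). The interaction was not called after median-ratio scaling (adjusted p = 0.328, limma) or without wild-type cisplatin 2 (adjusted p = 0.0605).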

How the results depend on the processing

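Of 800 values of the members under the alternatives, 768 kept their side of the threshold and, where called, their direction, 20 lost a call and 11 gained one. Another 1 gained a call with a change of sign: Txnrd1 in FAN1KO against wild-type under cisplatin, from an uncalled -0.00 to 0.55 without wild-type cisplatin 2, the range with each library left out being -0.33 to 0.55. As 665 of the 800 were uncalled at the start and had no call to lose, most of the 768 only stayed uncalled. Among 665 uncalled values 29 changed sign. The number of members called between genotypes under cisplatin, 4, ran from 0 to 5 when 1 library was left out, and Mt1 was not called from the 6 libraries alone (adjusted p = 0.0569, limma). That in FAN1KO kidneys, 5, ran from 4 to 5 over its own 6 libraries, and was 6, with Txnrd1 gained, without wild-type cisplatin 2; leaving out libraries outside a comparison changed no other call of a member. The interaction, with 0, gave 0 to 2 with 1 library left out, 3 with the Y-linked covariate and 3 in the 8 libraries without Y-linked RNA. Where the covariate is added, the spread shared with Y-linked RNA leaves the residual. For the losses and gains with 1 library left out, the cause was not tested beyond there being fewer samples. The replicate block gave 4, 5, 0, 0 and 0 members called, as without it. Over the 4 comparisons of 2 groups, same-numbered libraries deviated with correlations of -0.61 to -0.31 for numbers 1 and 3 and of 0.13 to 0.60 for number 2. In each comparison the library with Y-linked RNA was number 1 in 1 group and number 3 in the other, so these correlations cannot decide about pairing. The labels give no litter, and the numbers were not taken to pair the mice. Every member had at least 788 reads in each library, and in each comparison of 2 groups the SE was largest for Hmox1, at 1.40.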
